A study of Mus musculus with 12 samples.

Results

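The MYC family and MAX network was described in mouse FL5.12 cells that carry MycER, a MYC protein fused to the hormone-binding domain of the estrogen receptor. The network was taken as 10 named genes among the 21671 of the deposited table, and all 10 were found there by symbol. These were the MYC genes Myc, Mycn and Mycl, their common partner Max, the MXD genes Mxd1, Mxd3, Mxd4 and Mxi1, and the further MAX partners Mnt and Mga. Of the 10 genes, 8 passed the filter on low values and were tested, while Mxd1 and Mycl, the latter listed at 0 throughout, did not.

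MYC proteins are transcription factors that bind DNA as dimers with MAX, preferentially at a short palindrome called the E-box, and that act mostly as activators of genes for cell growth. MXD proteins and MNT also pair with MAX, bind the same element and recruit the SIN3-HDAC corepressor, so that they act as antagonists of MYC. MGA pairs with MAX inside a Polycomb-type repressor complex, PRC1.6. In lymphoid precursors, Myc is a central driver of growth and a frequent oncogene.

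The RNA-seq data covered 4 conditions with 3 biological replicates each. FL5.12 is an interleukin 3-dependent line from BALB/c mice, labelled prolymphocytic. All 12 libraries came from cells transduced with a retroviral vector that expresses MycER constitutively and selected as a pool, not as a single clone. Untreated cells received no drug. OHT cells had 100 nM 4-hydroxytamoxifen, the ligand that activates MycER, for 72 h. IACS cells were given the ETC complex I inhibitor IACS-010759 at 135 nM for 24 h without OHT. OHT_IACS cells were first primed with 100 nM OHT for 48 h and then kept in OHT with 135 nM IACS-010759 for 24 h more. Parental cells without MycER were not among the 12 libraries, so that activation of MycER and any other action of OHT cannot be told apart.

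Levels are given as RPKM, the reads on a gene divided by its length in kilobases and by the total of the library in units of fixed size. Reads per gene were recovered from the RPKM steps. The totals by which the values had been divided ran from 10376530 reads in OHT replicate 1 to 14550158 in untreated replicate 2. Reads assigned to genes ran from 4199266 to 5762340 per library. The 9745 genes that reached an RPKM of 1 in 3 or more libraries were compared with limma on log2(RPKM + 0.1), and a gene is said to be called, or to rise or fall, where its Benjamini-Hochberg adjusted p was below 0.05. The added 0.1 makes the differences of genes of low level smaller on this scale than they are.

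The label of the line was checked against markers. Among markers of pro-B and pre-B cells, Pax5, Rag1 and Dntt had no read in any library, Ebf1 and Igll1 had at most 1 read per library and Vpreb1 at most 4. Cd79b and Cd79a reached an RPKM of 1, with at most 3.64 and 1.59. The B-lineage identity given to the line was therefore not borne out by its defining markers. The summed RPKM of the list was 3.88, 3.96 and 4.60 in untreated, 2.66, 2.75 and 2.71 in OHT, 5.06, 4.67 and 3.77 in IACS and 2.26, 2.86 and 2.09 in OHT_IACS libraries. The list was lower in all 6 libraries with OHT than in the 6 without, and Cd79b was its most abundant gene.

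Genes of the IL-3 receptor were all present, with Csf2rb at 39.8 to 48.5 RPKM and the 3 genes together at 69.5 to 82.4. The sum in OHT_IACS libraries, 80.3, 82.4 and 81.8, was above that in all other libraries. In OHT_IACS against OHT and against IACS 2 of the 3 genes were called, both higher, beside 11.9% and 12.3% of all genes called higher. In OHT against untreated 1 was called, lower, beside 18.2% called lower, and in IACS against untreated 0, beside 15.9% called. Of 5 myeloid markers, 3 reached an RPKM of 1. Their sum was 16.3, 15.5 and 14.9 in untreated, 10.2, 12.5 and 10.4 in OHT, 14.8, 15.4 and 12.7 in IACS and 10.5, 9.77 and 9.80 in OHT_IACS libraries. Mpo, a granule enzyme, led this list at 8.65 to 13.7. Of 3 mast cell markers, Cpa3 alone reached an RPKM of 1, and the sum was 5.15, 4.59 and 4.05 in untreated, 4.05, 4.39 and 5.84 in OHT, 7.89, 7.62 and 8.47 in IACS and 11.1, 13.6 and 14.2 in OHT_IACS libraries, with Mcpt4 at 0. Of 4 erythroid markers 3 were in the table, led by Gata1 at 26.0 to 32.9. Their sum was 41.1, 41.4 and 41.4 in untreated, 42.1, 44.9 and 42.7 in OHT, 39.7, 37.7 and 33.8 in IACS and 37.2, 36.6 and 36.9 in OHT_IACS libraries. Klf1, an erythroid transcription factor singled out after its values were seen, was lower in each treatment, at 13.3, 12.9 and 13.7 in untreated, 9.05, 10.2 and 9.32 in OHT, 7.08, 7.41 and 6.38 in IACS and 4.92, 5.47 and 4.92 in OHT_IACS libraries. Its 4 conditions did not overlap. Of the 3 erythroid markers, all tested, 2 were called higher and 1 lower in OHT against untreated. In IACS against untreated and in OHT_IACS against IACS, 1 was called higher and 1 lower, and in OHT_IACS against OHT 1 lower. Over all genes tested, 36.4%, 15.9%, 26.5% and 23.7% were called in these comparisons. Of 4 T cell markers, Cd3g alone reached an RPKM of 1 and Cd3e was at 0. The sum was 1.85, 2.15 and 1.78 in untreated, 1.04, 0.911 and 1.09 in OHT, 2.34, 2.31 and 1.58 in IACS and 1.42, 1.49 and 1.79 in OHT_IACS libraries, lowest with OHT alone. Some of these lists thus moved with OHT or with IACS-010759, as the network did, and their part in the results was not tested. In bulk RNA, fewer cells of a type and less RNA per cell cannot be told apart.

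Promoter windows are shown because the E-box is the element through which all dimers of the network bind. RefSeq promoter sequences (GRCm38.p6), from 250 bases before to 50 after a start site, were at hand for 9 of the 10 genes in 11 windows, with no entry for Myc. The palindrome CACGTG, searched on both strands, was present in 3 of the 9 genes, Max, Mnt and Mxd4, against 8.09% of 27025 genes (7.15% of 32851 windows). Its first base lay 3 bases before the start site of Max, 123 before that of Mnt and 219 before that of Mxd4. The letters GCGGGAA or, on the other strand, TTCCCGC, an E2F-type element, were present in Mxd3 alone, 136 bases before its start, against 5.29% of genes. Neither was in the windows of Mycn, Mycl, Mxd1 or Mga, nor in the 3 windows of Mxi1. The stretches below run 5′ to 3′ on the strand of the gene, with the match in capitals. They lie at chr12:76962239-76962291 on the minus strand for Max, chr11:74830761-74830846 on the plus strand for Mnt, chr5:34187884-34187960 on the minus strand for Mxd4 and chr13:55329821-55329907 on the minus strand for Mxd3.
Max: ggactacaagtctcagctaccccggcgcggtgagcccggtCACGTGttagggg
Mnt: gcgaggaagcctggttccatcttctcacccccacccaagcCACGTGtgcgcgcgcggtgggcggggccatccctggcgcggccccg
Mxd4: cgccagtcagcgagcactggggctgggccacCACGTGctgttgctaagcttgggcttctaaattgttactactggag
Mxd3: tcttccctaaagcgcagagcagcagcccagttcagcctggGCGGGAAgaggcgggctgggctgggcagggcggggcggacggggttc
A match is a description of these letters, not of binding.

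Myc was the most abundant gene of the network in untreated cells, at 35.8, 35.9 and 37.2 RPKM. It was at 19.3, 22.5 and 21.2 in OHT, 46.6, 46.9 and 47.0 in IACS and 28.4, 30.9 and 31.6 in OHT_IACS libraries. All 4 conditions were separated without overlap, with OHT lowest and IACS highest, and the libraries with both agents lay below the untreated ones. Reads on Myc numbered 498 to 1598 per library. Whether they include reads of the MycER transgene was not tested, so these levels may not be those of endogenous Myc alone.

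Mycn, the paralogue best known from neural tumours, was expressed at nearly the level of Myc. Its RPKM was 30.2, 28.6 and 30.5 in untreated, 18.9, 19.9 and 17.5 in OHT, 39.1, 37.4 and 37.0 in IACS and 31.3, 34.4 and 33.9 in OHT_IACS libraries. As for Myc, OHT libraries were lowest and IACS libraries highest, but the libraries with both agents lay above the untreated ones. Mycl had 0 reads in all 12 libraries, which allows up to 3 reads in a library by counting error alone. Brms1, a subunit in the corepressor list below singled out after its values were seen, was likewise at 0 in all 12 libraries, and whether such values reflect expression or the gene models used for counting was not tested.

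Max varied less than Myc and Mycn, the other members of high level. It was at 32.4, 32.0 and 31.1 RPKM in untreated, 35.2, 35.5 and 39.3 in OHT, 32.2, 32.2 and 32.0 in IACS and 33.1, 33.8 and 31.7 in OHT_IACS libraries. The 3 OHT libraries were above the other 9, and OHT replicate 3 was the highest of all.

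Mxi1, an MXD antagonist also known as Mxd2, was at 5.99, 6.49 and 6.52 RPKM in untreated and 11.7, 11.2 and 11.99 in OHT libraries. In IACS libraries it was at 5.48, 5.91 and 5.48, and in OHT_IACS libraries at 10.3, 9.40 and 9.45. The 6 libraries with OHT were all above the 6 without it, in the opposite order to Myc.

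Mxd3, the MXD gene linked to S phase, followed another pattern. It was at 10.6, 7.78 and 9.00 RPKM in untreated, 5.79, 5.52 and 5.72 in OHT, 6.18, 5.89 and 5.81 in IACS and 5.23, 5.09 and 5.16 in OHT_IACS libraries. All 9 treated libraries were below the 3 untreated ones, and the untreated libraries differed most among themselves. Reads numbered 78 to 185 per library.

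Mxd4, an MXD gene associated with differentiated and resting cells, had 29 to 75 reads per library. Its RPKM was 4.76, 3.85 and 3.68 in untreated, 4.17, 3.89 and 2.28 in OHT, 4.35, 4.20 and 2.82 in IACS and 5.20, 5.24 and 5.25 in OHT_IACS libraries. The libraries with both agents were the highest and nearly alike, while replicate 3 of OHT and of IACS lay well below the other replicates of their conditions. Among genes with under 0.1 reads per base, such as Mxd4, Mxd3 and Mnt, reads within a condition rose with the library total with a median slope of 1.39 on log scales, and among genes with 0.3 to 0.5, such as Myc, Mycn and Max, with a slope of 0.912. Between these, at 0.1 to 0.3 reads per base, where Mxi1 and Mga lay, it was 1.21. Among genes with 0.5 to 1 reads per base, none of them in the network, the slope was 0.595, and above 1 it was 0.184. With the library total as a covariate the log2 fold change of Mxd4 in OHT against untreated went from −0.30 to −0.10 (limma adjusted p = 0.82). Mxd1, the founding MXD gene, had 31 to 77 reads per library (0.531 to 1.18 RPKM), reached an RPKM of 1 in 2 libraries and was not tested.

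Mnt, a broadly expressed antagonist, was at 2.79, 3.00 and 3.07 RPKM in untreated, 2.56, 3.36 and 3.26 in OHT, 2.38, 2.27 and 2.25 in IACS and 3.40, 2.49 and 3.05 in OHT_IACS libraries. IACS libraries were below the other 9. Mga ran from 8.99 to 11.1 RPKM, both extremes being OHT libraries.

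**Figure D1:**
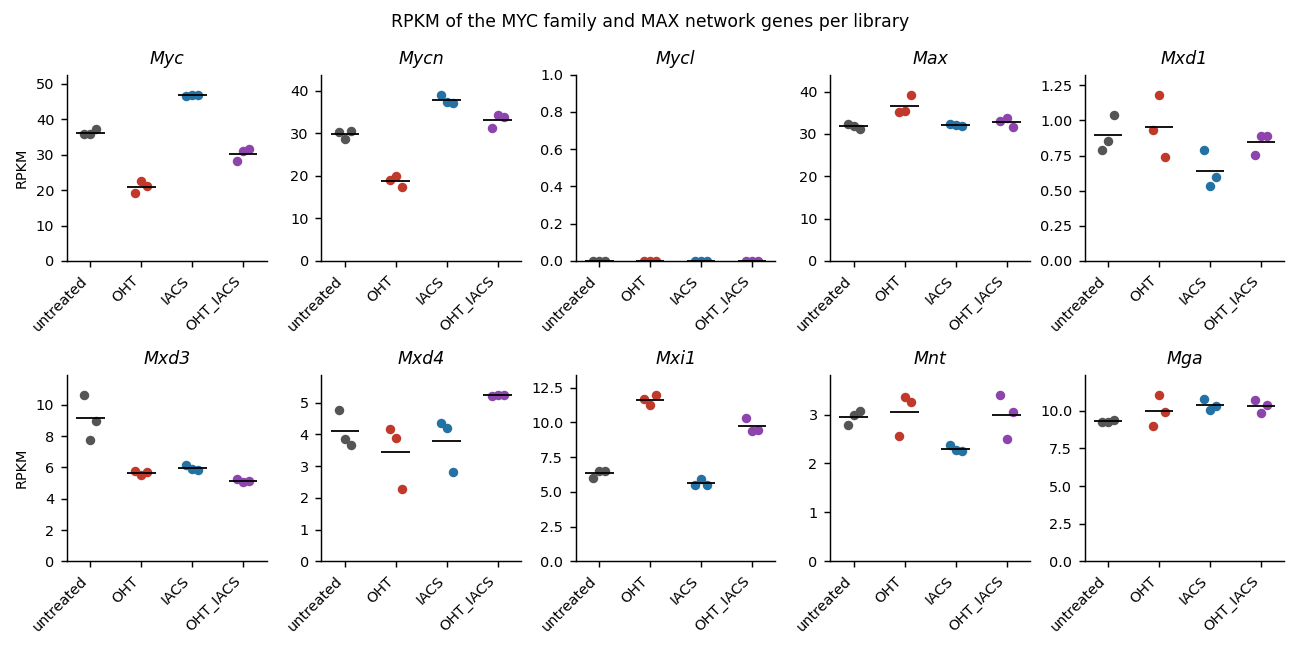
RPKM of the 10 genes of the network, a panel per gene with its own axis from 0, with a point per library, 3 libraries per condition and a line at the mean. Myc and Mycn are lowest in OHT and highest in IACS libraries, the 6 libraries with OHT are the highest for Mxi1, and Mycl is at 0.

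The order of the levels, as given by RPKM, which divides by the length of the gene model, changed between conditions. For Mxi1 that length was 6248 bases, while its longest GENCODE transcript had 5036, so that its place depends on the length used. In untreated cells it ran Myc (36.3 ± 0.779 RPKM, SD, n = 3), Max (31.8 ± 0.637), Mycn (29.8 ± 1.04), Mga (9.32 ± 0.0770), Mxd3 (9.14 ± 1.44), Mxi1 (6.34 ± 0.296), Mxd4 (4.10 ± 0.578), Mnt (2.95 ± 0.146), Mxd1 (0.893 ± 0.129) and Mycl. The libraries of Mga and Mxd3 overlapped, and no other neighbours did. In OHT cells Max (36.7 ± 2.30) came first, followed by Myc (21.0 ± 1.598) and Mycn (18.8 ± 1.25), which overlapped, and Mxi1 (11.6 ± 0.385) stood above Mga (9.98 ± 1.04). Mxd4 and Mnt overlapped there as well.

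In IACS cells Myc (46.8 ± 0.216) and Mycn (37.8 ± 1.13) were both above Max (32.1 ± 0.143), and Mxd3 overlapped with Mxi1. In OHT_IACS cells Mycn (33.2 ± 1.67) and Max (32.9 ± 1.07) overlapped. Myc (30.3 ± 1.71) was lower than Max without overlap but overlapped with Mycn. Mga (10.3 ± 0.431) and Mxi1 (9.72 ± 0.526) overlapped in this condition, as did Mxd4 (5.23 ± 0.0292) and Mxd3 (5.16 ± 0.0739).

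Summed by role, the MYC genes gave 66.0 ± 1.62 RPKM in untreated (SD, n = 3), 39.8 ± 2.31 in OHT, 84.6 ± 0.916 in IACS and 63.5 ± 3.32 in OHT_IACS cells. The 6 antagonists together gave 32.7 ± 1.49, 34.7 ± 1.29, 28.7 ± 1.36 and 34.3 ± 1.33 in the same order. The ratio of the former sum to the latter was 2.02 ± 0.0805 in untreated, 1.14 ± 0.0253 in OHT, 2.95 ± 0.114 in IACS and 1.86 ± 0.162 in OHT_IACS cells. Untreated and OHT_IACS cells overlapped in this ratio, and OHT and IACS cells lay outside on either side. These sums are of transcripts of the deposited gene models and hold no protein level, MycER included. Reads of the MycER transgene may count towards Myc, which was not tested, so the sums and ratios may hold them.

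The make-up of the antagonist sum also differed. Mxi1 was 19.4 ± 1.69% of it in untreated, 33.5 ± 2.29% in OHT, 19.6 ± 1.17% in IACS and 28.4 ± 0.706% in OHT_IACS cells. Mga, counted with the antagonists as a repressor that pairs with MAX, was 28.5 ± 1.34% in untreated, 28.7 ± 2.14% in OHT, 36.2 ± 1.54% in IACS and 30.1 ± 0.291% in OHT_IACS cells, the largest share in IACS cells. Mxd3 went from 27.8 ± 3.12% in untreated to 16.4 ± 0.978%, 20.8 ± 0.456% and 15.1 ± 0.369% in these 3 conditions. The share of Myc in the sum of the MYC genes was 54.9 ± 0.712% in untreated, 52.8 ± 2.17% in OHT and 55.3 ± 0.845% in IACS cells, which overlapped, but 47.7 ± 0.473% in OHT_IACS cells, below all other libraries.

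**Figure D2:**
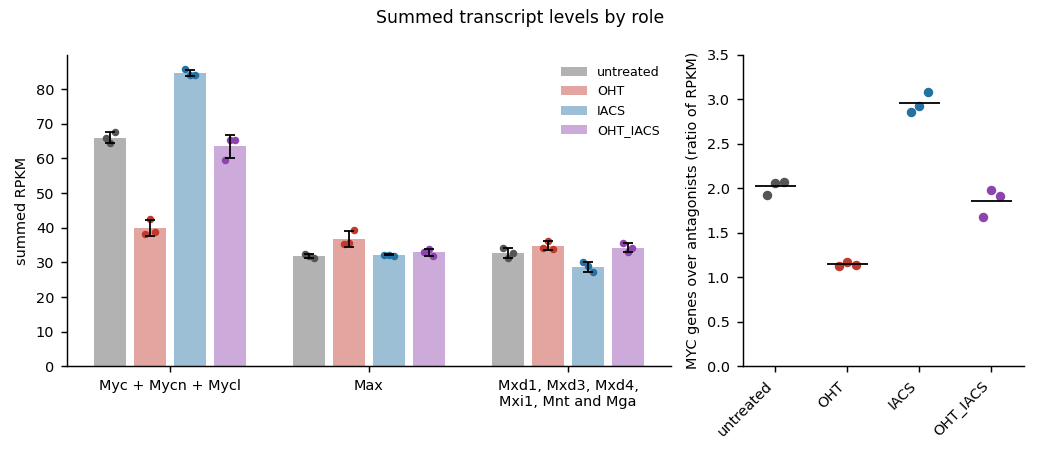
Left, RPKM summed over the MYC genes, of Max and summed over the 6 antagonists, as the mean of 3 libraries with SD and a point per library. Right, the ratio of the first sum to the third per library with a line at the mean, which is 1.14 in OHT and 2.95 in IACS cells.

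The first comparison, OHT against untreated, addressed activation of MycER alone. Myc, Mycn and Mxd3 fell and Mxi1 rose. Of the 8 tested members 5 were called, 2 higher and 3 lower, while 36.4% of the 9745 genes tested were called, 18.2% higher and 18.2% lower. Myc fell 1.75-fold (log2 fold change −0.81, SE 0.05, limma adjusted p = 1.7e-07) and Mycn 1.61-fold (−0.68, SE 0.06, limma adjusted p = 1.7e-06). Mxi1 rose 1.80-fold (0.85, SE 0.06, limma adjusted p = 3.3e-07). Mxd3 fell 1.61-fold (−0.69, SE 0.09, limma adjusted p = 6.3e-05). For each of these 4 genes the 3 OHT libraries lay on the same side of all 3 untreated ones.

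Max rose by a small amount, 1.13-fold (log2 fold change 0.18, SE 0.05, limma adjusted p = 0.011). That call was lost without untreated replicate 3 (limma adjusted p = 0.051), without OHT replicate 3 (0.059) and with the library total as a covariate (0.076). The lowest totals were those of OHT replicate 1 (10376530 reads) and OHT replicate 3 (10770476). The part of depth in the rise of Max was tested only by that covariate, with which the log2 fold change of Max was 0.12. Mxd4 (−0.30, SE 0.20, limma adjusted p = 0.25), Mnt (0.02, SE 0.12) and Mga (0.07, SE 0.06) were not called. With weights per library Mxd4 was at −0.73 (limma adjusted p = 0.0011), and without OHT replicate 3 at −0.02. The interval of Mga, −0.06 to 0.20 at 95% confidence, was narrow, and that of Mxd4, −0.73 to 0.13, was wide.

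The next comparison, IACS against untreated, addressed inhibition of ETC complex I in cells without active MycER, and shares the untreated libraries with the comparison above. Myc and Mycn rose while Mxd3 fell. Of the 8 tested members 5 were called, 2 higher and 3 lower, while 15.9% of all genes tested were called, 8.15% higher and 7.74% lower. Myc rose 1.27-fold (log2 fold change 0.34, SE 0.05, limma adjusted p = 0.00099) and Mycn 1.25-fold (0.32, SE 0.06, limma adjusted p = 0.0026). Mxd3 fell 1.54-fold (−0.63, SE 0.09, limma adjusted p = 0.00048). These 3 calls held without any single library. The count over all genes, 1548, was between 949 and 1030 without untreated replicate 1, 2 or 3 or IACS replicate 3.

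A pair of further calls lay close to the threshold. Mxi1 fell 1.15-fold (−0.20, SE 0.06, limma adjusted p = 0.041) and Mnt 1.29-fold (−0.37, SE 0.12, limma adjusted p = 0.048). The call of Mxi1 was lost without untreated replicate 2 or 3, OHT replicate 3, any IACS replicate or OHT_IACS replicate 3 (limma adjusted p from 0.05 to 0.14), with no filter (0.055), with RPKM as deposited (0.092) and in a fit to the libraries of these conditions alone (0.057). That of Mnt was lost without any untreated or IACS replicate, OHT replicate 3 or OHT_IACS replicate 3 (limma adjusted p from 0.058 to 0.13), and also with a pseudocount of 1 (0.051), no filter (0.083), RPKM as deposited (0.083) and the library total as a covariate (0.11). With both lost, 3 of the 8 members were called. Max (−0.01, SE 0.05), Mxd4 (−0.15, SE 0.20) and Mga (0.13, SE 0.06) were not called.

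OHT_IACS against OHT addressed the same inhibitor in cells with active MycER, shares no library with IACS against untreated and shares the OHT libraries with the first comparison. Myc and Mycn rose again and Mxi1 fell. Of the 8 tested members 5 were called, 3 higher and 2 lower, beside 23.7% of all genes tested, 11.9% higher and 11.8% lower. Mycn rose 1.76-fold (log2 fold change 0.82, SE 0.06, limma adjusted p = 7.8e-07) and Myc 1.44-fold (0.53, SE 0.05, limma adjusted p = 2.4e-05). Mxi1 fell 1.19-fold (−0.26, SE 0.06, limma adjusted p = 0.0085). The count over all genes, 2310, was 1521 without OHT_IACS replicate 3.

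Mxd4 rose 1.55-fold in this comparison (0.63, SE 0.20, limma adjusted p = 0.036), a value that leaned on OHT replicate 3. Without that library it was 0.36 (limma adjusted p = 0.12), and without OHT_IACS replicate 1, 2 or 3 the adjusted p from limma was 0.079, 0.073 or 0.088. The call was also lost with no filter (limma adjusted p = 0.074) and with no trend in the variances (0.058), and with weights per library the log2 fold change was 1.07. Max fell 1.11-fold (−0.15, SE 0.05, limma adjusted p = 0.034), a call lost without OHT replicate 1 or 3 or any OHT_IACS replicate (limma adjusted p from 0.057 to 0.14), with quantile normalization (0.075) and in a fit to these conditions alone (0.11). Members called numbered 3 of the 8 without OHT replicate 3 (16.4% of all genes called) and without any OHT_IACS replicate (15.6% to 17.8%). Mxd3 (−0.13, SE 0.09), Mnt (−0.04, SE 0.12) and Mga (0.05, SE 0.06) were not called.

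OHT_IACS against IACS addressed activation of MycER under complex I inhibition. Myc was lower and Mxi1 higher with OHT, as in the comparison of OHT with untreated cells, which has other libraries. Of the 8 tested members 4 were called, 2 higher and 2 lower, beside 26.5% of all genes tested, 12.3% higher and 14.3% lower. Myc fell 1.54-fold (log2 fold change −0.62, SE 0.05, limma adjusted p = 2.8e-06). Mxi1 rose 1.72-fold (0.79, SE 0.06, limma adjusted p = 1.1e-06).

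Mycn fell 1.13-fold (−0.18, SE 0.06, limma adjusted p = 0.031) and Mnt rose 1.28-fold (0.36, SE 0.12, limma adjusted p = 0.04). The call of Mycn was lost without any IACS replicate or OHT_IACS replicate 1 or 2 (limma adjusted p from 0.05 to 0.13) and with no filter (0.05). That of Mnt was lost without untreated replicate 2 or 3, any IACS replicate or OHT_IACS replicate 1 or 3 (limma adjusted p from 0.052 to 0.17), with no filter (0.068), with RPKM as deposited (0.057) and in a fit to these conditions alone (0.068). Members called numbered 2 of the 8 without any IACS replicate (19.4% to 25.5% of all genes called) and without OHT_IACS replicate 1 (20%). Mxd4 (0.49, SE 0.20, limma adjusted p = 0.09) and Mxd3 (−0.20, SE 0.09, limma adjusted p = 0.12) missed the threshold, which Mxd4 passed without OHT replicate 3 (0.02) and Mxd3 without untreated replicate 1 (0.045). In a fit to these conditions alone both passed it, with a limma adjusted p of 0.03 for Mxd4 and 0.038 for Mxd3. Max (0.04, SE 0.05) and Mga (−0.01, SE 0.06) were not called.

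**Figure D3:**
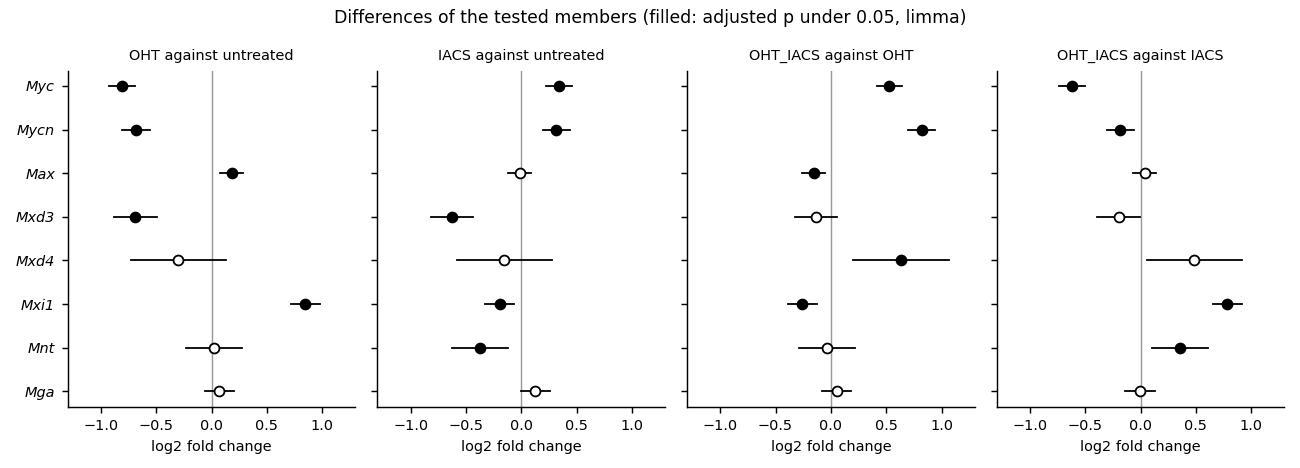
Log2 fold changes of the 8 tested genes in the 4 comparisons of a pair of conditions, with 95% intervals from limma, filled where the adjusted p was below 0.05. Myc is at −0.81 and Mxi1 at 0.85 in OHT against untreated, and Mycn at 0.82 in OHT_IACS against OHT.

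Whether the response to IACS-010759 differed between primed and nonprimed cells was tested by the interaction, the log2 fold change of OHT_IACS against OHT minus that of IACS against untreated. Of the 8 tested members 1 was called, Mycn, which was higher, beside 0.144% of all genes tested (14 genes, all higher, and 1240 genes at an unadjusted p under 0.05). The rise of Mycn was larger in primed cells by 0.50 on the log2 scale (SE 0.08, limma adjusted p = 0.039). This call held without OHT replicate 1 or 2 and was lost without any other library (limma adjusted p from 0.057 to 0.12), with no filter (0.079), RPKM as deposited (0.061), a replicate block (0.074), no trend (0.086) and the library total as a covariate (0.089). The difference itself stayed between 0.44 and 0.54 without any single library.

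Myc, whose rise was also the larger in primed cells, did not differ at the threshold (0.19, SE 0.08, limma adjusted p = 0.33), nor did Mxd3 (0.49, SE 0.13, limma adjusted p = 0.15) or Mxd4 (0.79, SE 0.28, limma adjusted p = 0.28). With weights per library, Myc, Mycn, Max, Mxd3 and Mxd4 were called, beside 1066 of all genes tested. For Mxi1 the difference was −0.06 (95% interval −0.24 to 0.12). The count of 14 genes over the whole table was itself unstable, with 3 genes without untreated replicate 1, OHT replicate 3 or OHT_IACS replicate 3, and 4 without OHT_IACS replicate 1. It was 6 without untreated replicate 2 or 3, 7 without IACS replicate 2, 8 without OHT replicate 1 or IACS replicate 1 or 3, and 149 without OHT replicate 2. Of these 149 genes, 97 were higher and 52 lower, and of the 11 without OHT_IACS replicate 2, 10 were higher and 1 lower.

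A pair of genes beside the network were followed with Myc. Pvt1, the noncoding gene next to Myc, ran from 2.57 to 3.30 RPKM. It came nearest to a call in OHT_IACS against IACS (log2 fold change −0.23, limma adjusted p = 0.072), where it was called with no trend in the variances (0.036) and with weights per library (0.02). Esr1, which encodes an estrogen receptor, was at 8.66, 8.43 and 8.73 RPKM in untreated, 8.29, 8.02 and 8.60 in OHT, 10.2, 9.65 and 10.6 in IACS and 10.1, 9.91 and 9.81 in OHT_IACS libraries. The 6 libraries with IACS-010759 were above the 6 without it. Esr1 rose 1.20-fold in OHT_IACS against OHT (log2 fold change 0.26, SE 0.06, limma adjusted p = 0.0053). Its rise in IACS against untreated (0.20, SE 0.06, limma adjusted p = 0.024) was lost without any untreated replicate or IACS replicate 1 or 3 (limma adjusted p from 0.055 to 0.097) and with the library total as a covariate (0.063). The length behind the RPKM of Myc, 2484 bases, was above that of its longest GENCODE transcript (2338 bases, 1362 of them coding), so that coding and untranslated parts were counted together. Whether reads of the MycER transgene were included in Myc or Esr1 was not tested.

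Genes most like Myc were sought among all genes tested, by Pearson's r on the log2 scale over the 12 libraries, which fall into the 4 conditions. The highest were Bcl2 (r = 0.996), the apoptosis inhibitor, Lfng (0.995), a modifier of Notch receptors, and Chst11 (0.991), a chondroitin sulfotransferase. Bcl2 was at 23.1 ± 0.355 RPKM in untreated (SD, n = 3), 14.2 ± 1.20 in OHT, 29.2 ± 0.831 in IACS and 19.7 ± 0.473 in OHT_IACS cells. Its order over the conditions was that of Myc, which follows largely from its choice by r among all genes tested. The lowest 2 were Nfe2l2 (−0.989), the antioxidant regulator NRF2, and Agpat5 (−0.984), an acyltransferase of phospholipid synthesis. Once the mean of each condition was subtracted, r over the same 12 libraries was 0.919 for Lfng, 0.661 for Bcl2, 0.401 for Chst11, −0.558 for Nfe2l2 and −0.586 for Agpat5.

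**Figure D4:**
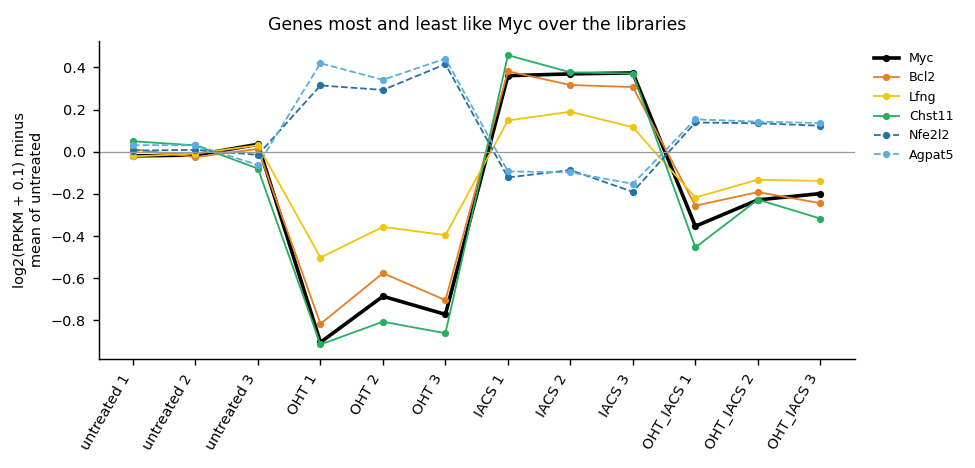
Log2(RPKM + 0.1) per library minus the mean of the untreated libraries, for Myc, the 3 genes most like it (solid lines) and the 2 least like it (dashed lines). Bcl2, picked for its r with Myc, follows it over the conditions, and Nfe2l2 and Agpat5 are highest in OHT libraries.

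For Mxi1 the most alike were Pdk1 (r = 0.994), a kinase that inhibits pyruvate dehydrogenase, Stard4 (0.989), a sterol carrier, and Smpdl3b (0.988). Pdk1 was at 9.19 ± 0.142 RPKM in untreated, 16.5 ± 0.317 in OHT, 8.67 ± 0.633 in IACS and 14.4 ± 0.538 in OHT_IACS cells. For Mycn they were Dusp6 (0.981), a phosphatase of ERK, Adam8 (0.979) and Fbxw4 (0.977). Dusp6 was at 14.4 ± 0.733, 9.74 ± 0.538, 20.3 ± 1.51 and 17.7 ± 0.933 RPKM in the same order, thus with OHT_IACS above untreated cells, as for Mycn. For Mxd3 they were Col5a1 (0.945), Batf (0.938) and Snord12 (0.928). Once the means of the conditions were subtracted, r was 0.774 for Pdk1, 0.149 for Stard4 and 0.399 for Smpdl3b with Mxi1. With Mycn it was 0.66 for Dusp6, 0.439 for Adam8 and 0.334 for Fbxw4, and with Mxd3 it was 0.168 for Col5a1, 0.718 for Batf and 0.521 for Snord12. Much of the likeness was thus between conditions. These genes too were picked by r, so a shared order of the conditions follows largely from the choice. Within the network, r over the 12 libraries was 0.90 between Myc and Mycn and −0.95 between Myc and Mxi1, and 0.41 and −0.55 once the means of the conditions were subtracted.

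The genes around the network were described by lists. Of 20 textbook MYC-activated genes, all tested, 13 were called in OHT against untreated, all higher, with a median log2 fold change of 0.27 beside 0.01 over all genes tested and 18.2% of them called higher. Of the 20 genes, 12 had at least 0.5 reads per base, and OHT replicates 1 and 3 had the lowest library totals. With the library total as a covariate 8 of the 20 were called, all higher, with a median of 0.10, beside 12.3% of all genes called higher. Among fits without a single library, the count was lowest, 9, without untreated replicate 2 or OHT replicate 3. There 13.3% and 12.7% of all genes were called higher. It was highest, 18, without OHT replicate 2, beside 23.1%. In the other comparisons of a pair of conditions the median over all genes tested was 0.004, −0.01 and −0.003. Beside the counts that follow, genes other than those with values were named after their values were seen. St6galnac4, a sialyltransferase, went from 7.17 to 19.0 RPKM (log2 fold change 1.38, SE 0.06, limma adjusted p = 4.8e-09). Rrp9, a nucleolar protein of rRNA processing, rose by 0.64 (SE 0.07), Ccnd2, a G1 cyclin, by 0.55 (SE 0.05) and Polr1b, a subunit of RNA polymerase I, by 0.40 (SE 0.07). These 4 genes were also called with the library total as a covariate. St6galnac4 and Rrp9 are genes for which the paper lists PCR primers, and it reports MYC-induced mRNAs raised by OHT. The rise of St6galnac4 and Rrp9 is therefore no independent support. In OHT_IACS against IACS, 7 of the 20 were called, all higher (median 0.13), beside 12.3% of all genes called higher. The count was 4 without IACS replicate 1 or 2, beside 9.65% and 9.72% of all genes called higher. The median was 0.08 without IACS replicate 2. With the library total as a covariate 10 were called, 9 higher and 1 lower, with a median of 0.07, beside 14.1% of all genes called higher. In IACS against untreated St6galnac4 and Ccnd2 rose (median 0.09, and −0.03 with the covariate), beside 8.15% of all genes called higher, and in OHT_IACS against OHT Polr1b fell (median −0.05, and 0.003 without OHT replicate 1), beside 11.8% called lower. These 3 calls were each lost without some single libraries. For St6galnac4 they were untreated or IACS replicate 1 or 2 (limma adjusted p from 0.094 to 0.14). For Ccnd2 they were any untreated replicate, OHT replicate 3, IACS replicate 2 or 3 or OHT_IACS replicate 2 (limma adjusted p from 0.051 to 0.16), and for Polr1b OHT or OHT_IACS replicate 2 or 3 (from 0.053 to 0.13). Each was also lost under 4 other settings, with a limma adjusted p of at most 0.09. In OHT_IACS against OHT the count of this list was 4 without OHT replicate 2 (30.7% of all genes called) and 5 with the covariate (28.5%).

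Of 10 textbook MYC-repressed genes 7 were tested, and 1 rose and 2 fell in OHT against untreated (median −0.40), near the 36.4% called over all genes. The median was −0.09 with the library total as a covariate and −0.23 without OHT replicate 3. Without untreated replicate 1, 1 of the 7 was called, beside 30% of all genes. Gadd45a, a stress-response gene, fell by 0.53 (SE 0.09, limma adjusted p = 0.00044), from 5.73 to 4.02 RPKM. Cdkn1b, an inhibitor of cyclin-dependent kinases, fell by 0.23 (SE 0.07, limma adjusted p = 0.019), a call lost without untreated replicate 1 or 3 or OHT replicate 3 (limma adjusted p from 0.074 to 0.084). Cdkn1a, another such inhibitor, rose by 0.23 (SE 0.08, limma adjusted p = 0.036), against the name of the list, a call lost without untreated replicate 1 or 2 or OHT replicate 1 or 2 (limma adjusted p from 0.067 to 0.15), with no filter (0.067) and with no trend (0.061). With IACS-010759 Gadd45a rose, by 0.85 (SE 0.09) without OHT and by 0.84 (SE 0.09) with OHT. In OHT_IACS against IACS, Gadd45b rose and Gadd45a, Ndrg1 and Btg1 fell (median −0.08), beside 26.5% of all genes called. That count of 4 was 2 without any IACS replicate, without OHT_IACS replicate 1 or 2 and with the covariate. In the same order 19.4% to 25.5%, 20%, 21.5% and 29% of all genes were called. The call of Btg1 (−0.67, limma adjusted p = 0.038) was lost without any untreated or IACS replicate or OHT_IACS replicate 1 or 2 (0.051 to 0.15) and under 3 other settings (at most 0.075). In IACS against untreated Gadd45a rose and Gadd45b fell (median −0.10), beside 15.9% of all genes called, and in OHT_IACS against OHT Gadd45a and Cdkn2b rose (median 0.04), beside 11.9% called higher.

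Of 14 genes of the SIN3-HDAC corepressor 13 were tested, and in OHT against untreated 2 were called, both higher (median 0.07), near the 18.2% of all genes called higher. The count was 1 without any untreated replicate, without OHT replicate 3 and with the covariate, and 4 without OHT replicate 2. In the same order 13% to 14.5%, 12.7%, 12.3% and 23.1% of all genes were called higher. Sap30, a core subunit, rose from 17.5 to 24.7 RPKM (log2 fold change 0.47, SE 0.06, limma adjusted p = 5.4e-05). Sap18 rose by 0.14 (SE 0.05, limma adjusted p = 0.037), a call lost without any untreated replicate or OHT replicate 1 or 3 (limma adjusted p from 0.078 to 0.14) and under 5 other settings, with the largest limma adjusted p, 0.38, for the library total as a covariate. Sap30 was lower in OHT_IACS than in OHT cells (−0.25, SE 0.06, limma adjusted p = 0.0091). Over the list, Ncor1 rose in IACS against untreated (median 0.03), Ncor1 rose and Sap30 fell in OHT_IACS against OHT (median −0.06), and Sap30 rose in OHT_IACS against IACS (median −0.0004), beside 15.9%, 23.7% and 26.5% of all genes called. The call of Ncor1 in IACS against untreated was lost without any untreated replicate or IACS replicate 1 or 3 (9.74% to 11.1% of all genes called). It was also lost with the covariate (16.3%), and 2 genes were called without OHT_IACS replicate 2 (15.3%). The count in OHT_IACS against IACS was 4 without OHT replicate 1 (29.1%) and 3 without OHT replicate 2 (29.1%).

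Of the 10 genes of PRC1.6, the complex of MGA and MAX, all were tested. In OHT against untreated 3 were called, all higher (median −0.04), beside 18.2% of all genes called higher. With the library total as a covariate 2 were called, beside 12.3% of all genes called higher. Rybp, a subunit shared by variant PRC1 complexes, went from 9.18 to 14.8 RPKM (0.66, SE 0.05, limma adjusted p = 3.9e-07). Pcgf6, the subunit that defines PRC1.6, went from 10.7 to 13.6 (0.32, SE 0.04, limma adjusted p = 8e-05). Tfdp1, the partner of E2F proteins, rose by 0.24 (SE 0.08, limma adjusted p = 0.039), a call lost without any untreated replicate, OHT replicate 1 or 3, IACS replicate 1 or OHT_IACS replicate 2 or 3 (limma adjusted p from 0.051 to 0.14) and under 4 other settings, with the largest limma adjusted p, 0.59, for the library total as a covariate. In OHT_IACS against IACS Rybp and Pcgf6 rose and Rnf2, a ubiquitin ligase of PRC1, fell (median −0.03), near the 26.5% called over all genes. The call of Rnf2 (−0.18, limma adjusted p = 0.027) was lost without IACS or OHT_IACS replicate 1 or 2 (0.076 to 0.11) and with RPKM as deposited (0.054). In IACS against untreated and in OHT_IACS against OHT, 0 of the 10 were called by limma and 0 by voom on recovered reads. Over all genes, limma called 15.9% and 23.7%. Of the 10, 1 and 2 genes were at an unadjusted p under 0.05, beside 2969 and 3621 of the 9745 genes tested. In the former comparison 1 gene was called without OHT replicate 1 (18.5% of all genes called) or 2 (18.1%) and with the covariate (16.3%). In the latter 3 were called without OHT replicate 2 (30.7%) and 1 with the covariate (28.5%).

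Of 14 MYC coactivators and partner factors, all tested, 2 were called in OHT against untreated, both higher (median 0.10), near the 18.2% of all genes called higher. The count was 4 without OHT replicate 2, beside 23.1% of all genes called higher. The median was 0.07 without that library and 0.06 without untreated replicate 1. Ruvbl1, an ATPase of chromatin complexes, rose by 0.41 (SE 0.07, limma adjusted p = 0.00036) and Kat2a, the histone acetyltransferase GCN5, by 0.21 (SE 0.05, limma adjusted p = 0.0058). Ccnt1 rose in IACS against untreated (median 0.03), Ccnt1 and Ep400 in OHT_IACS against OHT (median 0.06), and Ruvbl1 and Kat2a in OHT_IACS against IACS (median 0.08). These counts were near the shares of all genes called higher, 8.15%, 11.9% and 12.3%. In that comparison the call of Ruvbl1 (0.25, limma adjusted p = 0.013) was lost without IACS replicate 2 (0.065) or OHT_IACS replicate 1 (0.062). The counts over this list changed with the libraries kept, as did those over all genes. The call of Ccnt1 in IACS against untreated was lost without any untreated or IACS replicate (9.74% to 12.7% of all genes called). It was also lost with the covariate (16.3%). Neither call in OHT_IACS against OHT held without OHT replicate 3 (16.4%) or OHT_IACS replicate 1 (17%) or 3 (15.6%). The count there was 1 without OHT replicate 1 (17%) and 6 without OHT replicate 2 (30.7%). In OHT_IACS against IACS the count was 4 without OHT replicate 1 (29.1%) and 5 without IACS replicate 3 (25.5%). It was 1 without IACS replicate 2 (19.4%) or OHT_IACS replicate 1 (20%).

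Of 16 genes of MYC protein turnover and phosphorylation, all tested, 3 rose and 2 fell in OHT against untreated (median 0.06), near the 36.4% called over all genes. The count of 5 was 2 without untreated replicate 2, without OHT replicate 1 and with the library total as a covariate, and 3 without OHT replicate 3. In the same order 28%, 31.6%, 24.1% and 27.4% of all genes were called. Usp36, a nucleolar deubiquitinase, rose by 0.43 (SE 0.10, limma adjusted p = 0.0063), and Pim1, a kinase induced by cytokines, fell by 0.38 (SE 0.07, limma adjusted p = 0.00068). Aurka, the mitotic kinase, rose by 0.18 (SE 0.05, limma adjusted p = 0.017), a call lost without untreated replicate 2 or OHT replicate 1 or 3 (limma adjusted p from 0.055 to 0.073), with the library total as a covariate (0.17) and in a fit to these conditions alone (0.051). Set, an inhibitor of a phosphatase, was the further gene that rose. Pim2 fell by 0.38 (SE 0.11, limma adjusted p = 0.019), a call lost without untreated replicate 2 or 3 or OHT replicate 1 (limma adjusted p from 0.074 to 0.079) and with the library total as a covariate (0.37).

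In IACS against untreated 1 gene of this list rose and 1 fell (median 0.03), near the 15.9% called over all genes, the latter being Skp2, part of a ubiquitin ligase. That count of 2 was 1 without untreated replicate 1 (9.74% of all genes called) or IACS replicate 3 (10.5%) and 4 with the covariate (16.3%). In OHT_IACS against OHT Usp36 and Pim1 rose and Aurka and Skp2 fell (median 0.06), near the 23.7% called over all genes, with Pim1 at 0.30 (SE 0.07, limma adjusted p = 0.0064). The call of Usp36 there (0.38, limma adjusted p = 0.018) was lost without OHT replicate 1 (0.076) or OHT_IACS replicate 1 (0.061). In OHT_IACS against IACS Usp36 and Axin1 rose and Pim1 fell (median 0.05), a count of 3 beside 26.5% called over all genes. It was 1 without IACS replicate 3 (25.5% of all genes called) or OHT_IACS replicate 1 (20%) or 2 (21.5%). The call of Pim1 (−0.22, limma adjusted p = 0.026) was lost without IACS replicate 3 or any OHT_IACS replicate (0.055 to 0.081) and in a fit to these conditions alone (0.057).

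The MLX arm, a parallel network of glucose-responsive factors, had 2 of 3 genes tested. Mlxip, which encodes MondoA, rose in OHT against untreated by 0.31 (SE 0.11, limma adjusted p = 0.044) and in OHT_IACS against IACS by 0.52 (SE 0.11, limma adjusted p = 0.0038). The former call was lost without any untreated replicate, OHT replicate 2 or 3, IACS replicate 1 or OHT_IACS replicate 2 or 3 (limma adjusted p from 0.05 to 0.17), and under 5 other settings (from 0.056 to 0.078). Mlx, the MAX-like partner, was not called in OHT against untreated (−0.12, SE 0.06) and was lower in OHT_IACS than in OHT cells (−0.23, SE 0.06, limma adjusted p = 0.0095) and than in IACS cells (−0.23, SE 0.06, limma adjusted p = 0.0089). Mlxipl was too low to be tested. In the interaction 0 of the 81 tested genes of these 7 lists were called by limma and 0 by voom, beside 0.144% of all genes called by limma. Of the 81, 6 were at an unadjusted p under 0.05, beside 1240 of the 9745 genes tested.

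**Figure D5:**
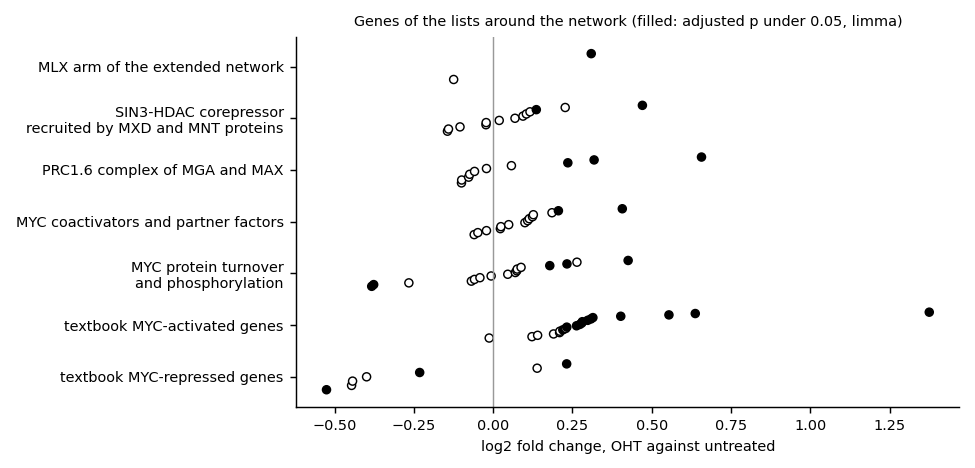
Log2 fold changes in OHT against untreated for the tested genes of 7 lists, a point per gene, filled where the limma adjusted p was below 0.05. Of the MYC-activated genes 13 of 20 are filled, all above 0, with St6galnac4 at 1.38 the farthest.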

How the data were processed

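The submitters made stranded total RNA libraries with ribosomal RNA removed, mapped reads to mm9 with TopHat2 2.0.8 and SAMtools, and counted them per gene with featureCounts 1.4.5-p1. The authors deposited RPKM of 21671 genes in 12 libraries. Columns of log2 fold changes, with adjusted p-values, of 3 comparisons by DESeq2 were also deposited by the authors and were not used.

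Reads were recovered from the RPKM steps of each library. Of the 15451 genes above 0, all came out as whole reads, with a relative deviation of at most 1e-08. Counting error alone allows up to 3 reads behind a value of 0, and intervals on reads cover counting error only. RPKM values were scaled by median ratios over the libraries, and 0.1 was added before log2. Genes that reached an RPKM of 1 in 3 or more libraries were fitted once over the 4 conditions with limma 3.58.1 (R 4.3.3), with moderated variances and a trend. Tests were two-sided, with the Benjamini-Hochberg threshold at 0.05, and covered 4 comparisons of a pair of conditions and their interaction. The procedure was tested on simulated data.

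Alternatives were a pseudocount of 0.01 or 1, no filter or one at RPKM 5, RPKM as deposited, quantile normalization, a replicate block, no trend, library weights, the library total as a covariate, voom on recovered reads, only the groups compared, and each library left out in turn. For genes and counts of the lists these alternatives were added after seeing the data. The members and lists were chosen with earlier results of these data known. Every member was named, with Pvt1 and Esr1. From each list at most 4 genes with the smallest adjusted p in OHT against untreated were given values, and all of the MLX arm. Further genes beside small counts, and Klf1, Brms1 and Il3ra, were named after their values were seen. Genes alike were the 3 of highest Pearson's r with Myc, Mycn, Mxi1 and Mxd3 and the 2 of lowest r with Myc. Promoters came from RefSeq (GRCm38.p6) and transcripts from GENCODE vM21. Summaries used python 3.11.15, numpy 2.4.6, pandas 2.3.3, scipy 1.17.1 and matplotlib 3.10.9.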

Additional observations from a re-analysis of the deposited data

Results flagged for a closer look

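The test of the difference between the responses of primed and nonprimed cells to IACS-010759 picked out Mycn among the members, with a difference of 0.50 on the log2 scale (SE 0.08, limma adjusted p = 0.039). The same test picked out Il3ra, the alpha chain of the IL-3 receptor and a marker of the line, with a difference of 0.68 (SE 0.12, limma adjusted p = 0.045). Il3ra was singled out after its values were seen. Its mean was 7.62 RPKM in untreated, 5.93 in OHT, 7.67 in IACS and 9.44 in OHT_IACS cells. It rose by 0.67 (SE 0.08, limma adjusted p = 0.0001) in OHT_IACS against OHT and was at −0.01 in IACS against untreated. The call of Il3ra in the interaction held without untreated replicate 2 or OHT replicate 2 and was lost without any other single library (limma adjusted p from 0.062 to 0.12). It was also lost with no filter (0.079), RPKM as deposited (0.13), a replicate block (0.073), no trend (0.097) and the library total as a covariate (0.099).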

How the results depend on the processing

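Over all alternatives and left-out libraries, log2 fold changes of the 8 tested members kept their direction and side of the threshold in 184 of 191 values in OHT against untreated, 163 of 191 in IACS against untreated, 175 of 191 in OHT_IACS against OHT, 164 of 191 in OHT_IACS against IACS and 164 of 183 in the interaction. Besides those in the report and below, Mga was called in IACS against untreated with library weights (limma adjusted p = 0.042) and Esr1 in OHT against untreated with the library total as a covariate (0.045). No cause was tested for any of them beyond what a setting itself does, such as fewer libraries. Where a library is left out, a condition keeps 2 libraries. Leaving out a library of a condition outside a comparison cannot move its log2 fold change, only the error and adjusted p. Such values are in the counts for the comparisons of a pair of conditions, so those counts overstate how stable the directions are. The filter at RPKM 5 leaves Mnt and Pvt1 without a value. Mxd4 passes it only through the OHT_IACS libraries, where it is highest, so its values there say nothing of stability, though they are counted above.

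The count of genes called in OHT against untreated was 5631 with library weights and 2351 with the library total as a covariate. In IACS against untreated it was 2734 with library weights and 949 to 1805 without single libraries, and in OHT_IACS against OHT 4199 with library weights and 1521 to 2995 without single libraries. In the interaction it was 7 with no filter, 5 with RPKM as deposited, 34 with quantile normalization, 7 with a replicate block, 1066 with library weights, 5 with the covariate, 36 by voom and 3 to 149 without single libraries. The cause was not tested.

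The number of members called in IACS against untreated was 3 with no filter, with RPKM as deposited and with a replicate block, and 3 to 5 without single libraries. In OHT_IACS against OHT it was 3 to 5 without single libraries. In OHT_IACS against IACS it was 2 with no filter and 2 to 5 without single libraries. In the interaction 0 were called by limma with no filter, RPKM as deposited, a replicate block, no trend and the covariate, against 5 with library weights and 0 to 1 without single libraries. Without any of these changes, 4 members were at an unadjusted p under 0.05 in the interaction, beside 1240 of the 9745 genes tested. By voom 1 member was called, beside the count by voom over all genes given above. The cause was not tested.

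Directions reversed only where no call had been made. Pvt1 in OHT against untreated was at 0.013 with quantile normalization. Max in IACS against untreated was at 0.014 with RPKM as deposited and −0.035 to 0.0032 without single libraries. Mga in OHT_IACS against IACS was at 0.011 with quantile normalization, 0.017 with the covariate and −0.039 to 0.040 without single libraries. Esr1 in that comparison was at 0.0032 with library weights and −0.063 to 0.032 without single libraries. Without single libraries Mnt ran from −0.038 to 0.12 in OHT against untreated and from −0.14 to 0.094 in OHT_IACS against OHT, and Mxd4 from −0.25 to 0.020 in IACS against untreated. The cause was not tested.

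Residuals of libraries of the same replicate number correlated at 0.083 to 0.104 between OHT and untreated, each being highest with its own number, and at −0.133 to 0.0852 in the other comparisons, where that did not hold. No pairing was assumed. With the numbers as a block, the calls of Mxi1 (limma adjusted p = 0.062) and Mnt (0.065) in IACS against untreated, Mnt in OHT_IACS against IACS (0.055) and Mycn in the interaction (0.074) were lost, and Mxd4 was called in OHT_IACS against IACS (0.03). Among the members with reads, Mxd4 (29 to 75 per library) and Mxd1 (31 to 77) had the fewest. Mxd1, fitted with no filter, was called in no comparison by limma, with adjusted p of 0.93, 0.2, 0.74, 0.26 and 0.74, and an unadjusted p under 0.05 in 1 of them, IACS against untreated.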
